A study of Mus musculus with 47 samples.

Results

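The zinc finger genes Zfp700 to Zfp999 were followed across the liver, lung and brain of mouse embryos at E18.5, late in gestation. The members were chosen by symbol alone, as every row of the deposited gene count table whose symbol is Zfp and a number in the range Zfp700 to Zfp999. The rule took 126 of the 20456 genes, and 237 other genes named Zfp and a number served for comparison. The embryos were homozygous for one of 2 germline knock-in alleles of Daxx, or were wild-type littermates. Daxx is a chaperone of the histone variant H3.3. The S226A substitution removes its binding to H3.3, and Y130A removes its binding to the chromatin remodeler Atrx. The paper holds it possible that the loss of Atrx binding is incomplete. It also reports more Daxx protein with Y130A and less with S226A, most clearly in embryonic fibroblasts. Both alleles were made with CRISPR/Cas9 in C57BL/6N zygotes, their founders were backcrossed to C57BL/6J, and the labels give the strain as C57BL/6. Heterozygous parents were intercrossed, so each mutant has wild-type embryos of its own 4 litters beside it, and S226A and Y130A embryos came from different litters. Each tissue was sequenced from 4 embryos of each genotype in each set, except that only 3 wild-type lungs came from Y130A litters. The tissues came from the same embryos, except for replicate 4 of the wild-type lungs of S226A litters, from another embryo of its litter. In all, 47 libraries fell into 12 groups. The alleles are in the germline, so every cell of a mutant embryo carries its allele, and wild-type littermates carry neither. Each library is the RNA of a whole organ, in which fewer cells of a type and less RNA per cell cannot be told apart.

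Zinc finger proteins of the C2H2 type bind DNA through strings of short fingers, each of which reads a few bases. Many mouse members also carry a KRAB box at the start of the protein. The KRAB box recruits the corepressor Trim28, which brings the histone methyltransferase Setdb1 and heterochromatin proteins to the bound site, and a well known use of the system is the silencing of endogenous retroviruses. KRAB zinc finger genes arose by repeated local duplication and therefore lie in clusters of similar genes. Daxx, Atrx and H3.3 also act at heterochromatin and at silenced repeats, which is the reason to ask how these genes stand in the mutants.

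All 126 members were protein coding. A KRAB box was found by pattern search in 102 of them and none in 24. A C2H2 finger was found in 119, with a median of 11 fingers in the KRAB members and 5.5 in the rest. The members lay on 17 chromosomes, and 87 of them fell into 13 clusters, defined as 3 or more members with at most 1000000 bases from one gene start to the next. Chromosome 4 held the largest cluster, with 16 members (chr4:145510759-147848366). A cluster on chromosome 17 held 13 members (chr17:21567008-22867134), one on chromosome 2 held 10 (chr2:174643534-178078476), and a second one on chromosome 17 held 6 (chr17:32765496-33033402). This last cluster ends 0.876 Mb from Daxx itself. More than 10% of the 50-base words of 45 members also occurred in transcripts of another gene, so reads from these members can be lost or shared in counting.

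Total counts per library ran from 15722147 to 26190403 in the S226A set and from 36351738 to 54885020 in the Y130A set, so the Y130A set resolves low genes better and sequencing depth cannot be told apart from the set of litters. Levels are given as CPM, the reads of a gene scaled to a common library size, and a fold against a group with no reads was computed against a floor of 3 reads per library, which covers counting error only. Summed markers of hepatocytes, lung epithelium and neurons were highest in liver, lung and brain. A wild-type liver of the S226A litters (replicate 2) and a Y130A liver (replicate 1) held transcripts of squamous epithelium at 1120 and 750 CPM in sum, against 12.8 CPM or less in every other liver. Calls that were lost without these 2 livers are named beside the result. Daxx RNA lay between 27.2 and 50.9 CPM in all 12 groups and was called in no mutant comparison, which checks no label, because both alleles change 1 residue. Of the 126 members, 109 had enough reads to be tested. The other 17, of which 16 carried a KRAB box, reached 0.597 CPM at most in any library, and 9 of the 16 members of the chromosome 4 cluster were among them.

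In wild-type embryos the members were most abundant in brain. Their summed level was 2757 ± 141 CPM (SD, n = 8) in brain, 1986 ± 49.1 CPM (n = 7) in lung and 1467 ± 65.9 CPM (n = 8) in liver, and the 3 tissues did not overlap. A mean of at least 10 CPM was reached by 67 members in brain, 56 in lung and 42 in liver. Of the 109 tested members, 73 had their highest mean in brain, 19 in lung and 17 in liver. These counts were not taken over all genes, so whether they are particular to the members was not tested. A difference between tissues was called at an adjusted p below 0.05 with a log2 fold change beyond 1 (edgeR quasi-likelihood test, adjusted over 16892 genes). The tissues of an embryo were not paired in this test, and the embryo as a block was an alternative.

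Against liver, 54 members (49.5%) were called higher in brain and 9 (8.26%) lower, where 31% of all genes were called higher and 28% lower. The median log2 fold change of the members was 0.99, against 0.08 over all genes. Against lung, 23 members (21.1%) were higher in brain and 11 (10.1%) lower, beside 24.1% and 27.2% of all genes. Here the share of members called higher was near that of all genes, and the median over members was 0.41. Lung against liver gave 25 members (22.9%) higher and 6 (5.5%) lower, beside 26.4% and 20.1% of all genes, with a median of 0.57. The other Zfp genes had medians of 1.03, 0.53 and 0.53 in the same 3 comparisons, so the tilt was not particular to the members.

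Members called higher in brain than in both other tissues numbered 23 (21.1%, near the 19.3% of all genes), of which 18 carried a KRAB box. Zfp811, a KRAB member on chromosome 17, stood out most. Its level ran from 40.4 to 57.3 CPM in the 8 wild-type brains, with a median of 50.8, from 0.944 to 2.77 CPM in lung and from 0 to 0.92 CPM in liver. Brain exceeded liver by 6.74 ± 0.26 (log2, SE; adjusted p = 9.65e-26, edgeR) and lung by 4.79 ± 0.23 (adjusted p = 6.02e-22). The 5 members next in order showed the same separation.

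Zfp941 ran from 35.4 to 43.1 CPM in brain, from 0.676 to 2.8 CPM in liver and from 0.375 to 1.61 CPM in lung. Zfp786 had 23.1 ± 2.51 CPM (SD, n = 8) in brain, 1.79 ± 0.941 CPM in liver and 1.99 ± 0.995 CPM in lung. Zfp773 had 17.5 ± 1.45 CPM in brain, 0.625 ± 0.417 CPM in liver and 1.58 ± 0.469 CPM in lung. In none of these did a liver or lung library reach the lowest brain library. Zfp940 had 28.9 ± 2.41 CPM in brain, 1.57 ± 1.05 CPM in liver and 4.34 ± 1.25 CPM in lung. Zfp853, which has no KRAB box, had 8.78 ± 0.714 CPM in brain, 0.193 ± 0.28 CPM in liver and 0.901 ± 0.304 CPM in lung.

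The members on either side of Zfp811 had other levels. Zfp871, the next gene of the cluster on the same strand, had 85.1 ± 12.2 CPM in liver, 81.8 ± 19.1 CPM in lung and 70.9 ± 10.9 CPM in brain, and was among the 6 most even members. Zfp799, on the other side, had 16.4 ± 2.07, 26.5 ± 1.41 and 50 ± 2.31 CPM in the same order, so its brains also lay above every lung and liver, by a smaller difference. The 250 bases before the start sites of Zfp811 and Zfp871 are shown because these 2 genes lie side by side, and Zfp811 was far higher in brain while Zfp871 was even over the tissues. Capitals mark CG dinucleotides, and both are written 5′ to 3′ on the minus strand, from RefSeq on GRCm38.p6.
Zfp811, chr17:32809932-32810181: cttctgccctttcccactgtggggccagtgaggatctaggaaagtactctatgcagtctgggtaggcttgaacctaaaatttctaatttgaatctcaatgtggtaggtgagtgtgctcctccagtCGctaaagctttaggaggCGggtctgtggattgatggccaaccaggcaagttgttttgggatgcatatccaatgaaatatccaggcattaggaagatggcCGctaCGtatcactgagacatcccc
Zfp871, chr17:32788288-32788537: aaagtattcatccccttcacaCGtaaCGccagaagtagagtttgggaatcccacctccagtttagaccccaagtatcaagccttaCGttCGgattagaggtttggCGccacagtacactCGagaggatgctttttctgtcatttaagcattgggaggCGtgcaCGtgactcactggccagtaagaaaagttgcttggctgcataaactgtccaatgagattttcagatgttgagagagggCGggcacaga

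Zfp811 had 4 CG dinucleotides in this window, with an observed to expected ratio of 0.28, and Zfp871 had 9, with a ratio of 0.63. RefSeq windows were at hand for 108 members, from 250 bases before to 50 after the start. Over these the median ratio was 0.50, against 0.39 over all 27025 genes with a window. The 17 members without a KRAB box had a median of 0.84, the 91 with one 0.44, and the 13 untested members 0.28. In the 22 windows at hand for the 23 members called higher in brain than in both other tissues the median was 0.50. The letters AAGATGGC, known as a YY1 motif, occurred on either strand in 5 members (4.63%) and in 2.88% of all windows, and Zfp811 was one of the 5. The letters TATAAA occurred in 3 members (2.78%), against 14.2% of all windows. The NRF1 motif GCATGCGC was found in 2.78% of members and 2.8% of all windows.

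Members higher in liver than in both other tissues numbered 4 (3.67%, beside 15.3% of all genes). Zfp831 had 7.79 ± 2.17 CPM (SD, n = 8) in liver, 0.564 ± 0.156 CPM in lung and 0.162 ± 0.0895 CPM in brain. Zfp750, known from epidermal differentiation, had 9.14 ± 1.86 CPM in liver, 1.67 ± 0.917 CPM in lung and 0.0759 ± 0.0727 CPM in brain. It lies within an intron of Tbcd, but no exon of another gene overlaps its exons. In liver it ran from 7.33 to 12.8 CPM, and the wild-type liver with squamous transcripts, at 10.3 CPM, lay inside that range. Zfp791 had 28.6 ± 4.94 CPM in liver, 5.76 ± 1.03 CPM in lung and 5.78 ± 0.772 CPM in brain. Zfp992 was the fourth, at 5.86 ± 1.13 CPM in liver, 1.6 ± 0.461 CPM in lung and 2.63 ± 0.572 CPM in brain.

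Members higher in lung than in both other tissues also numbered 4 (3.67%, beside 11.6% of all genes). Zfp970 had 42.6 ± 8.41 CPM (SD, n = 7) in lung, 16.2 ± 4.32 CPM in liver and 9.79 ± 1.15 CPM in brain. Zfp809, which silences murine leukemia viruses by binding the primer binding site of the provirus, had 34.4 ± 6.12 CPM in lung, 16.6 ± 3.02 CPM in liver and 8.73 ± 1.3 CPM in brain. Its lung libraries, from 25.2 to 43.3 CPM, lay above its liver libraries, from 13 to 21.3 CPM. Zfp979 was low and uneven, with 1.72 ± 0.987 CPM in lung and 0.667 ± 0.431 CPM in liver, and its libraries overlapped. Its call against brain was lost without replicate 2 of the wild-type lungs of either set (adjusted p up to 0.0539, edgeR). Zfp703, a corepressor of the NET family, had 11.4 ± 10.9 CPM in lung. The size of its SD came from 2 wild-type lungs of the S226A litters, replicates 3 and 4, at 20.9 and 32.2 CPM. The other 5 ran from 3.39 to 7.91 CPM. Lung exceeded liver by 1.05 ± 0.24 for Zfp703 and by 1.01 ± 0.10 for Zfp809 (log2, SE), so close to the limit of 1 that both dropped below it when single libraries were left out, with adjusted p-values of 0.00127 and 5.87e-11 at most. With the embryo as a block the differences were 0.86 ± 0.30 (adjusted p = 0.0161, edgeR) and 0.99 ± 0.14 (6.55e-06), below the limit as well. Zfp703 was also below it without the 2 livers holding squamous transcripts (0.99 ± 0.25, adjusted p = 0.000458), and Zfp809 with the Y130A litters thinned (0.99 ± 0.10, 2.98e-12).

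**Figure D1:**
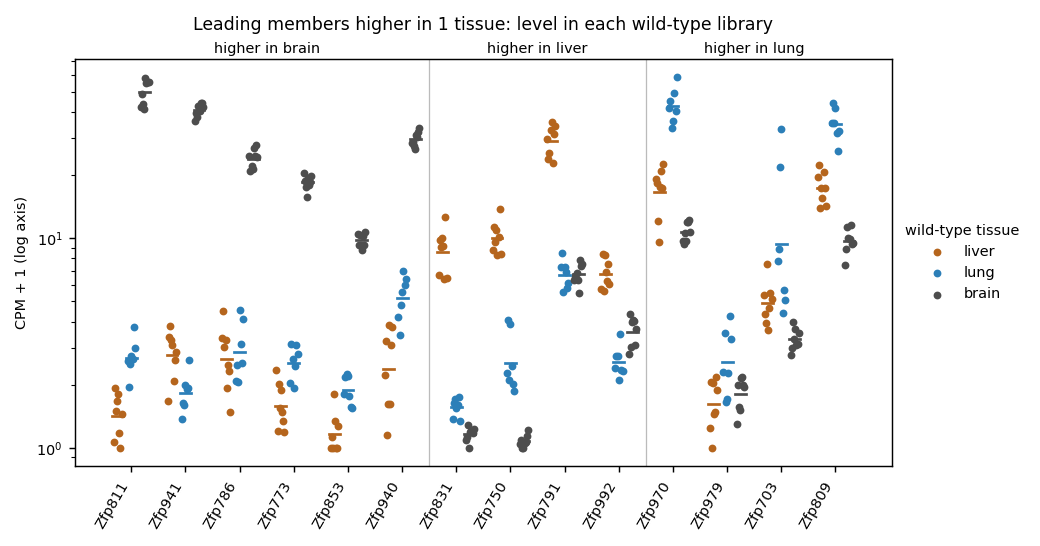
CPM plus 1 on a log axis for 14 members called higher in 1 tissue than in both others, the first 6 of the 23 for brain by their smaller log2 fold change and all 4 each for liver and lung, with a point for each wild-type library (8 livers, 7 lungs, 8 brains) and a bar at the geometric mean. The 6 members on the left separate brain from both other tissues without overlap, as for Zfp811 at 40.4 to 57.3 CPM in brain against at most 2.77 CPM elsewhere, while the lung libraries of Zfp703 spread from 3.39 to 32.2 CPM.

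At the even end, 38 members had at least 10 CPM on average in every tissue. Zfp971 varied least, with 17.5 ± 4.62 CPM in liver, 18.0 ± 3.44 CPM in lung and 18.8 ± 2.41 CPM in brain, and none of its 3 tissue comparisons passed the test (lowest adjusted p = 0.198, edgeR). Zfp869 followed, at 20.8, 21.6 and 23.1 CPM, and Zfp961 at 16.2, 18.7 and 18.8 CPM. Zfp830, needed for growth of the early embryo and for splicing, stood at 21.8, 19 and 18.7 CPM. Zfp949 and Zfp871 completed the 6.

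Per kilobase of exon, the scale on which different genes can be compared, Zfp740 was the highest member in every tissue, with 24.9 ± 2.08 CPM per kb in liver, 31.4 ± 2.17 in lung and 27.1 ± 1.16 in brain. Zfp706, which encodes a short protein of 76 residues that restrains self-renewal in embryonic stem cells, had 12.4 ± 1.28 CPM per kb in liver, 13.5 ± 1.05 in lung and 25.4 ± 1.78 in brain. Its liver libraries, from 51.7 to 73.3 CPM, overlapped its lung libraries, from 57.1 to 72.5 CPM, and its brain libraries lay above both, from 114 CPM. Zfp704 had 4.69 ± 0.372 CPM per kb in liver, 12.7 ± 2.42 in lung and 20 ± 1.85 in brain.

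The remaining members with a known role covered the whole range of levels. Zfp711, an X-linked gene tied to intellectual disability, had 1.25 ± 0.908 CPM in liver, 19.6 ± 3.81 CPM in lung and 55.6 ± 7.05 CPM in brain. Zfp827 had 26.1 ± 4.89, 48.8 ± 9.21 and 66.1 ± 5.34 CPM in the same order, and Zfp746, the parkin substrate also called PARIS, 27.9 ± 3.43, 45.7 ± 6.61 and 41.2 ± 3.04 CPM. Zfp932, a KRAB repressor of endogenous retroviruses, had 6.55 ± 2.16 CPM in liver, 6.45 ± 2.33 CPM in lung, and 15.3 to 21 CPM in brain. Zfp819 stayed below 1 CPM in every tissue. Zfp708, which binds repeats and guards DNA methylation in the early embryo, was among the untested members and had 4 reads at most in any library. Since 96.4% of its exon bases overlap exons of other genes on the same strand, its reads may have been left out in counting.

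In S226A liver, 4 members were lower than in wild-type littermates and none was higher. That is 3.67% of the members, below the 11.7% of all genes called in this comparison (adjusted p below 0.05, no fold limit). Zfp760 read 15.4, 14.1, 16.9 and 15.4 CPM in the wild-type livers and 11.4, 13.9, 9.41 and 9.62 CPM in the mutants. The groups did not overlap, and the mutant was lower in all 4 litters, by a log2 fold change of -0.47 ± 0.13 (SE; adjusted p = 0.0144, edgeR). Zfp944, from the same cluster on chromosome 17, read 11.1, 11.4, 9.41 and 9.44 CPM in wild type and 6.32, 7.02, 8.29 and 8.36 CPM in the mutant, again without overlap (-0.47 ± 0.15, adjusted p = 0.0344, edgeR). Zfp944 shares 10.4% of its 50-base words with other genes, mostly with Zfp942 of the same cluster.

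Zfp810, beside Zfp809 on chromosome 9, read 27.6, 18.4, 15.5 and 18.1 CPM in wild type and 12.6, 17, 16.9 and 15 CPM in the mutant. The groups overlapped, and the mutant was lower in 3 of 4 litters (-0.37 ± 0.12, adjusted p = 0.0386, edgeR). Zfp972 was called on few reads. It had 0, 11, 5 and 7 reads in wild type and 1, 3, 0 and 0 in the mutant (-2.65 ± 0.82, adjusted p = 0.0276, edgeR), and 55.7% of its 50-base words occur in other genes. All 4 are KRAB members.

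These liver calls depended on the libraries and on the fit. Zfp760 was lost without S226A replicate 3 or 4 (adjusted p up to 0.0689), Zfp944 without wild-type replicate 1 or 2 or S226A replicate 1 or 2 (up to 0.12), Zfp810 without wild-type replicate 1 or S226A replicate 1 or 4 (up to 0.384), and Zfp972 without wild-type replicate 2 or 4 or S226A replicate 1, 3 or 4 (up to 0.126, all edgeR). The count was 7 without wild-type replicate 4, 9 without S226A replicate 2, and 2 without S226A replicate 1 or 3. With the litter as a block, Zfp944 (adjusted p = 0.0624) and Zfp810 (0.0872) were lost, and Zfp945 (-0.36 ± 0.11, adjusted p = 0.0316) and Zfp992 (-0.82 ± 0.26, adjusted p = 0.0356) were called lower. Without the 2 livers holding squamous transcripts, Zfp944 (0.0708) and Zfp972 (0.129) were lost and 2 members were called higher, Zfp940 at 1.57 ± 0.40 (adjusted p = 0.00634) and Zfp995 at 1.00 ± 0.32 (0.0345). No member was called when the 8 S226A set livers were fitted alone (adjusted p = 0.0972 for Zfp760).

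Markers of other cell types moved with the genotype in the same livers. The summed level of 7 macrophage markers was 131 to 206 CPM in S226A liver and 643 to 807 CPM in wild type. Vsig4, a marker of resident liver macrophages, was at 0 in all 4 mutants, against 13.5 to 19.7 CPM, and Clec4f was at 0.133 to 0.739 CPM against 93.6 to 155 CPM. The 8 markers of neutrophils and their precursors summed to 8794 to 9446 CPM against 3025 to 3602 CPM, and 5 B cell markers to 28 to 66.6 CPM against 82.8 to 95.7 CPM. Hepatocyte markers, 7 in number, ran from 149949 to 177013 CPM against 180500 to 185071 CPM. The part of these shifts in the member results was not tested.

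Of the members not called in S226A liver, Zfp750 had 7.44, 3.51, 6.81 and 4.58 CPM in the mutants and 7.74, 10.3, 8.55 and 9.99 CPM in wild type (-0.71 ± 0.35, adjusted p = 0.199, edgeR). Zfp831 stood at 9.75 to 12.9 CPM against 5.65 to 9.07 CPM (0.53 ± 0.38, adjusted p = 0.418). In all, 7 members (6.42%) had mutant and wild-type livers that did not overlap, 1 higher and 6 lower, beside 11.9% of all genes. The median log2 fold change was -0.07 over the members, -0.06 over other Zfp genes and -0.01 over all genes.

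In S226A lung, 3 members were called (2.75%, beside 1.88% of all genes). Zfp946, a KRAB member of the chromosome 17 cluster that holds Zfp760 and Zfp944, read 7.08, 7.15, 4.16 and 6.46 CPM in wild-type lungs and 10.8, 10.7, 9.08 and 9.17 CPM in mutant lungs. Every mutant exceeded every wild type, by 0.68 ± 0.15 (log2, SE; adjusted p = 0.00694, edgeR). Zfp970 on chromosome 2, the member most raised in lung among tissues, read 41.0, 44.4, 32.6 and 35.3 CPM in wild type and 66.8, 52.4, 51.8 and 57.8 CPM in the mutant, also without overlap (0.58 ± 0.15, adjusted p = 0.0301). Of its 50-base words, 49.5% occur in other genes as well, most of them in Gm14288. Zfp710, a member with no KRAB box, read 46.0, 57.5, 61.6 and 68.9 CPM in wild type and 50.1, 37.4, 42.7 and 48.2 CPM in the mutant, and fell by 0.39 on the log2 scale (SE 0.10, adjusted p = 0.0227) with overlapping groups.

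Each lung call was lost without wild-type replicate 3, with adjusted p-values of 0.0798 for Zfp946, up to 0.16 for Zfp970 and up to 0.161 for Zfp710. Zfp970 was also lost without wild-type replicate 4 or S226A replicate 1 or 4, and Zfp710 without wild-type replicate 4 or S226A replicate 2. The count was 6 without wild-type replicate 1, 7 without wild-type replicate 2, 0 without wild-type replicate 3 and 1 without wild-type replicate 4. Wild-type replicates 3 and 4 are the 2 lungs with high Zfp703. In its repeat analysis the paper names a wild-type lung of the S226A set as a possible outlier. The label of that lung matches replicate 4 but for 2 swapped digits. None of the 3 was called when the 8 lungs were fitted alone (adjusted p from 0.224 to 0.685). Macrophage markers summed to 45.6 to 56.7 CPM in the mutant lungs and 79.1 to 96.3 CPM in wild type, and those of neutrophils and precursors to 127 to 179 CPM against 32.5 to 76.2 CPM. Their part was not tested. Of the members, 5 (4.59%) did not overlap, beside 3.81% of all genes.

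**Figure D2:**
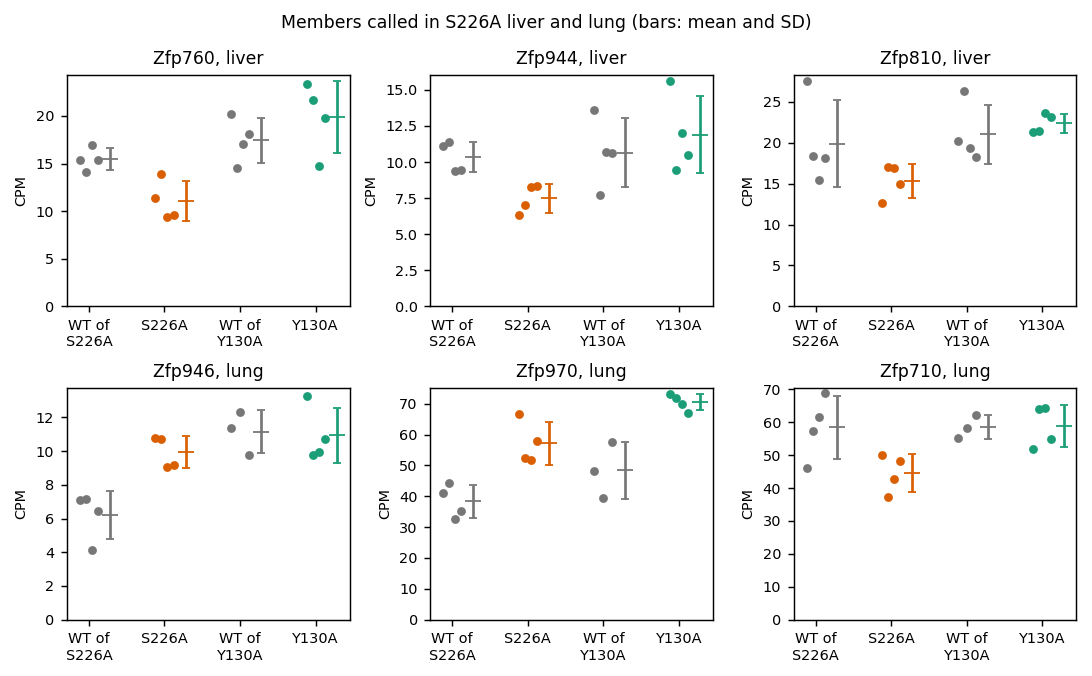
CPM of the members called in S226A liver (top) and lung (bottom) except Zfp972, with a point for each library and bars at the mean and SD of each group of 4 (3 for wild-type lungs of Y130A litters). Zfp760 and Zfp944 lie lower, and Zfp946 and Zfp970 higher, in every S226A library than in the wild-type libraries of the same litters, and Zfp946 in wild-type lungs of the Y130A litters lies at 9.78 to 12.3 CPM, beside 9.08 to 10.8 CPM in S226A lungs.

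Zfp946 also differed between wild-type embryos. Wild-type lungs of Y130A litters had 11.4, 12.3 and 9.78 CPM of it and Y130A lungs 13.3, 9.8, 9.94 and 10.7 CPM, so that the S226A lungs lay next to both and the wild-type lungs of the S226A litters stood apart. The difference between the S226A and the Y130A effect on Zfp946 was 0.70 ± 0.21 and missed the threshold (adjusted p = 0.168, edgeR). Zfp970 did not overlap in either mutant. Its Y130A lungs read 73.0, 71.9, 70 and 67.0 CPM and their wild-type lungs 48.2, 39.3 and 57.6 CPM, without overlap, and the Y130A effect was 0.54 ± 0.16. It was not called (adjusted p = 0.819). The effects of S226A and Y130A on Zfp970 in lung differed by 0.03 ± 0.22 (adjusted p = 1), and the 2 comparisons share no library.

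In S226A brain, Zfp992 was the one member called (0.917% of the members, beside 0.243% of all genes). It read 1.81, 3.33, 2.01 and 2.96 CPM in wild type and 0.805, 0.898, 0.878 and 0.826 CPM in the mutants, which is 43 to 80 reads against 20 to 23. The log2 fold change was -1.56 ± 0.32 (SE; adjusted p = 0.0103, edgeR), and the mutant was lower in all 4 litters. The call was lost without wild-type replicate 2 or 4 or S226A replicate 1 or 4, with adjusted p-values up to 0.0696. It held with the litter as a block (adjusted p = 0.00926), with the 8 brains fitted alone (0.0108) and with DESeq2 (0.000561). In the brains, 3 members (2.75%) did not overlap, beside 2.48% of all genes. Macrophage markers summed to 17.7 to 22 CPM in S226A brains and to 40.5 to 45.1 CPM in wild type, those of neutrophils and precursors to 6.58 to 14.6 CPM against 3.84 to 5.55 CPM, and those of squamous epithelium to 1.8 to 2.44 CPM against 2.55 to 3.24 CPM. Their part was not tested.

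In Y130A embryos 1 member was called over all 3 tissues. In liver it was Zfp872 (0.917%, beside 0.272% of all genes), with 0, 8, 22 and 5 reads in the mutants and 0 in each of the 4 wild-type livers. Against a floor of 3 reads per library it was at least 3.2-fold higher. The call was lost with the litter as a block (adjusted p = 0.0643, edgeR), after thinning the Y130A set to the depth of the S226A set (0.29), and without wild-type replicate 1, 2, 3 or 4 or Y130A replicate 3 (up to 0.125). S226A livers and their wild-type littermates also held 0 to 12 reads of it. No member was called in Y130A lung or brain, beside 0.0178% and 0.00592% of all genes. There 6 members in lung and 4 in brain had an unadjusted p below 0.05 (edgeR), and DESeq2 called 0 in lung and 1 in brain, Zfp992. With the 8 brains fitted alone, Zfp991 was called in brain.

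Groups that did not overlap were found for 4 members (3.67%) in Y130A liver, beside 2.35% of all genes, and for 5 (4.59%) in lung, beside 4.16%. In brain it was 16 members (14.7%), beside 4.75% of all genes, 11 of them higher and 5 lower. Among the 5 lower were Zfp991 (log2 fold change -1.15 ± 0.38, SE), Zfp992 (-1.27 ± 0.30) and Zfp993 (-1.31 ± 0.70), none of them called in the fit of all 47 libraries. Some of the other differences were small, and 2 examples were chosen after their values were seen. Zfp948 read 30.3 to 30.5 CPM in Y130A brains and 28.6 to 29.8 CPM in wild type (0.05 ± 0.12, adjusted p = 1, edgeR), and Zfp950 32.2 to 36.2 CPM against 26.5 to 30.4 CPM (0.24 ± 0.09, adjusted p = 1). The median over the members was 0.01. Zfp809 was higher without overlap in both Y130A liver, at 19.9 to 24.6 against 13.2 to 19.6 CPM, and Y130A lung, at 31.8 to 38.8 against 25.2 to 31.4 CPM. Neither passed the test (0.42 ± 0.13, adjusted p = 0.196 in liver, and 0.31 ± 0.14, adjusted p = 1 in lung).

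**Figure D3:**
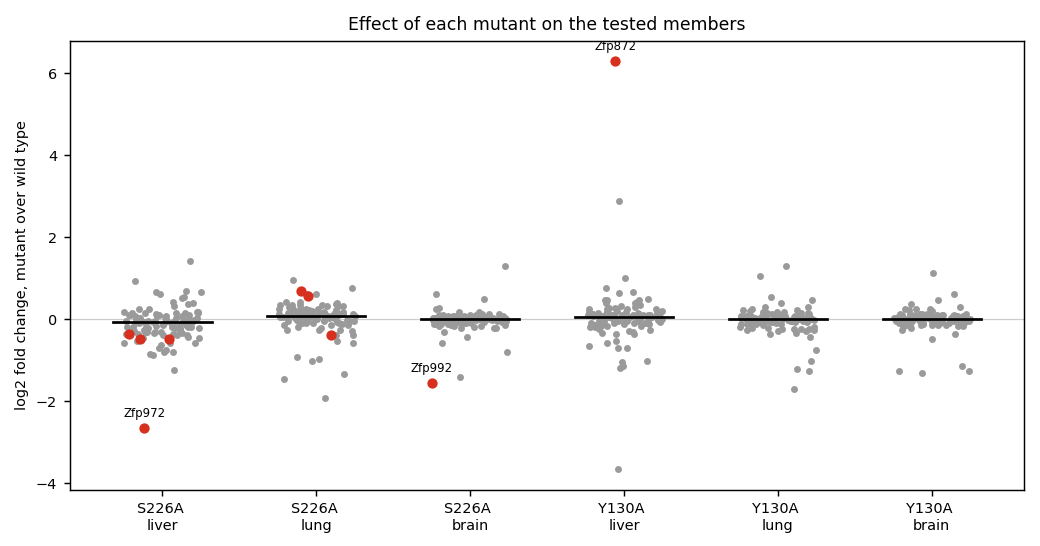
Log2 fold change of mutant over wild-type littermates for each of the 109 tested members in the 6 comparisons. Red points were called at an adjusted p below 0.05, grey points were not, and the black bar is the median. The medians lie between -0.07 and 0.08, and the called members beyond 1 in size are Zfp972 in S226A liver, Zfp992 in S226A brain and Zfp872 in Y130A liver.

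Of the 109 tested members, 6 (5.5%, beside 1.75% of all genes) had a negative and 3 (2.75%, beside 1.62%) a positive log2 fold change in all 6 mutant comparisons, with no test. The tissues of a mutant came from the same embryos, so these comparisons are not independent. The 6 members with a negative sign held Zfp992, Zfp991, Zfp993 and Zfp984 of the chromosome 4 cluster. These 4 were singled out for that sign after their values were seen, and the one call among them was that of Zfp992 in S226A brain. Zfp992 (chr4:146449023-146470292) had log2 fold changes of -0.84 ± 0.30, -0.98 ± 0.33 and -1.56 ± 0.32 in S226A liver, lung and brain and of -1.05 ± 0.30, -1.27 ± 0.33 and -1.27 ± 0.30 in Y130A liver, lung and brain. S226A brain alone passed the threshold, and adjusted p-values in the other 5 were 0.0641, 0.119, 0.115, 0.42 and 0.778 (edgeR). With the litter as a block, Zfp992 was also called in S226A liver (0.0356) and in Y130A liver (0.0459), and DESeq2 called it in these livers (0.0303 and 0.0213) and in Y130A brain (0.0471) beside S226A brain.

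In liver, Zfp992 read 4.73, 7.43, 4.6 and 7.29 CPM in the wild type of the S226A litters and 3.16, 3.46, 4.08 and 2.72 CPM in S226A. In the Y130A set it read 5.89, 5.27, 6.57 and 5.06 CPM in wild type and 3.75, 2.43, 1.84 and 2.96 CPM in the mutant. In brain the Y130A set gave 3.09, 3.01, 2.1 and 2.7 CPM in wild type and 1.34, 1.2, 0.662 and 1.32 CPM in the mutant. The groups were apart in both livers and both brains and overlapped in both lungs, where wild type ran from 1.1 to 2.49 CPM and the mutants from 0.413 to 1.34 CPM.

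Zfp991 (chr4:147132038-147180579) did not overlap between Y130A and wild type in any of the 3 tissues, with the lower values in the mutant, and passed the test in none (adjusted p of 0.62 in liver and 1 in lung and brain, edgeR). Its brain level was 1.76 to 2.24 CPM in Y130A and 3.74 to 5.09 CPM in wild type (-1.15 ± 0.38, adjusted p = 1, edgeR). In S226A its changes were -0.14 ± 0.40 in liver, -0.52 ± 0.41 in lung and -0.79 ± 0.40 in brain (adjusted p from 0.589 to 1). Zfp993, at a level under 1.9 CPM in every library, had log2 fold changes from -1.92 ± 0.86 in S226A lung to -0.76 ± 0.75 in S226A liver, and none passed (adjusted p from 0.255 to 1, edgeR). Those of Zfp984 ran from -0.59 ± 0.26 in S226A brain to -0.06 ± 0.26 in S226A liver and -0.05 ± 0.26 in Y130A lung, and none passed either (adjusted p from 0.384 to 1). Zfp992, Zfp991 and Zfp993 share sequence in the count table: 43% of the 50-base words of Zfp992 and 82.2% of those of Zfp991 occur in other genes, and Zfp992 and Zfp993 share most with Zfp991. Zfp992 and Zfp993 also lie within Gm26573, and Zfp991 within C230088H06Rik. In the whole cluster, 7 members were tested, and their median was -0.14, -0.52 and -0.59 in S226A liver, lung and brain and -0.69, -0.75 and -0.37 in the Y130A tissues, beside medians over all members from -0.07 to 0.08. Most of the 7 are the members singled out for a negative sign. The negative sign of the cluster medians therefore followed from that choice and is no further result.

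**Figure D4:**
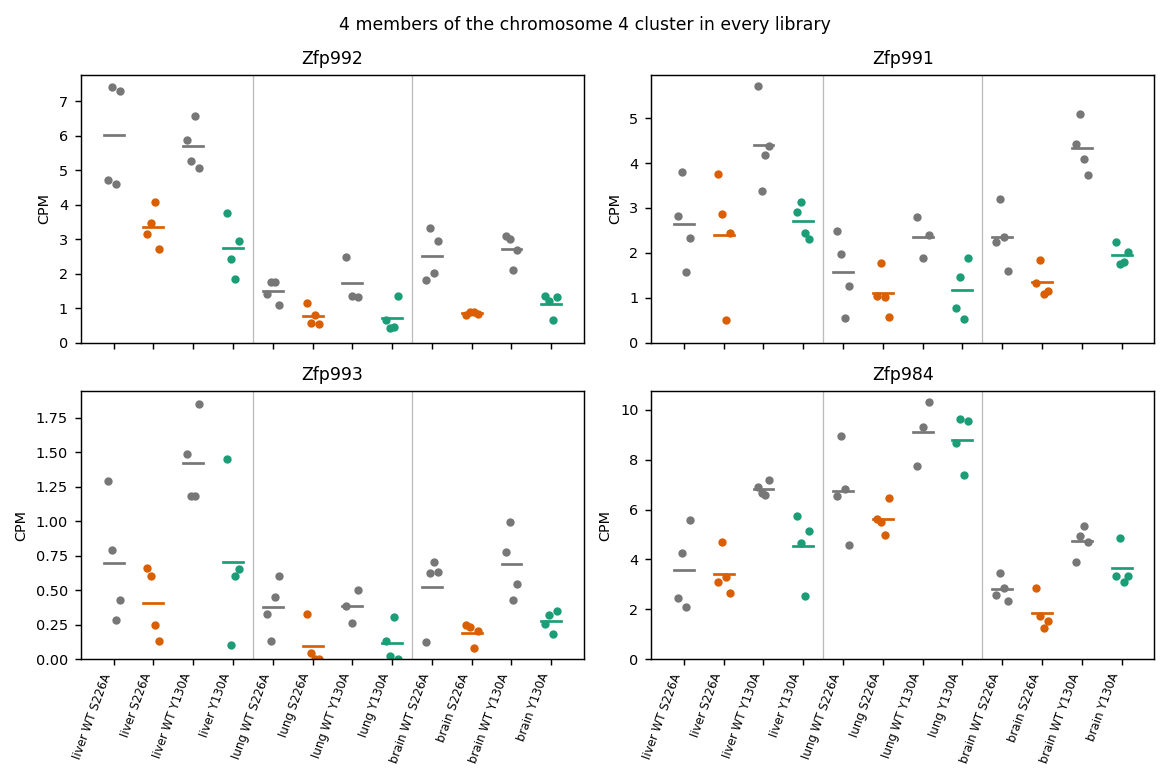
CPM of Zfp992, Zfp991, Zfp993 and Zfp984 in each of the 47 libraries, by tissue, genotype and set of litters (grey wild type, orange S226A, green Y130A, bars at the mean). The mean of Zfp992 lies lower in both mutants than in the wild type beside them in every tissue. Its single libraries are apart in liver and brain, such as 0.805 to 0.898 CPM in S226A brains against 1.81 to 3.33 CPM, and overlap in both lungs.

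The S226A and Y130A effects were set against each other directly. In liver, 3 members differed (beside 5.9% of all genes), namely Zfp760 (-0.66 ± 0.18, adjusted p = 0.0223, edgeR), Zfp945 (-0.65 ± 0.19, 0.0321) and Zfp972 (-3.29 ± 1.00, 0.0404). For Zfp760 the S226A effect was -0.47 and the Y130A effect 0.19. Zfp945 read 17.3, 12.7, 10.4 and 11.5 CPM in S226A livers against 13.8 to 19.4 CPM in wild type, and 22.8, 22.1, 16.2 and 17.6 CPM in Y130A livers against 13.5 to 19.1 CPM. Leaving out 1 library lost the call of Zfp760 in 4 cases (adjusted p up to 0.069), of Zfp945 in 9 (up to 0.0899) and of Zfp972 in 11 (up to 0.131), and the count was 0 without S226A replicate 3 and 1 without S226A replicate 4 or Y130A-litter wild-type replicate 3. None of the 3 held without the 2 livers with squamous transcripts, with adjusted p-values of 0.0572, 0.174 and 0.108, and Zfp995 was then called (1.60 ± 0.43, 0.0201). In lung and in brain 0 members differed (beside 0.308% and 0.0829% of all genes), with 5 and 1 at an unadjusted p below 0.05 (edgeR) and 0 by DESeq2.

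Among the members near those called, the chromosome 17 cluster of 13 gave 2 calls in S226A liver (15.4%, beside 11.7% of all genes) and 1 in S226A lung (7.69%, beside 1.88%). This cluster was taken because it holds called members, so its shares count the calls that chose it and show no enrichment. Its log2 fold changes ran from -0.59 to 0.67 in liver, with 4 of 13 above 0, and from -0.29 to 0.68 in lung, with 11 of 13 above 0. The chromosome 17 cluster nearest to Daxx, with 6 members, gave no call in any mutant comparison. The 86 tested KRAB members had 4 calls in S226A liver (4.65%) and the 23 others none, both below the 11.7% of all genes. Of the 24 genes of the KRAB pathway and of Daxx-dependent silencing, all were tested. Chd3 (-0.28, adjusted p = 0.0306, edgeR) and Morc3 (0.25, 0.0344) were called in S226A liver and Dnmt1 (0.28, 0.0449) in S226A lung, and none in the other 4 mutant comparisons. None of the 3 was called with only the compared libraries fitted (adjusted p = 0.124, 0.125 and 0.747). Morc3 was also lost with the litter as a block (0.0574) and without the 2 livers holding squamous transcripts (0.0543), where Dnmt1 in lung stood at 0.0503. Trim28 itself changed by between -0.05 and 0.07 and Setdb1 by between -0.10 and 0.07. Of the 12 members with a known role, the 11 tested were called in no mutant comparison, and their lowest adjusted p was 0.12, for Zfp703.

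Between wild-type embryos of the 2 sets of litters, more members were called than between mutants and their littermates. In lung it was 20 members (18.3%, beside 20.1% of all genes), in liver 13 (11.9%, beside 13.1%) and in brain 5 (4.59%, beside 5.98%), so the shares called lay near or below those of all genes. Higher calls in the Y130A litters numbered 16, 10 and 4. Members whose libraries did not overlap between the sets were 32 in lung (29.4%, beside 22% of all genes), 13 in liver (11.9%, beside 10.7%) and 39 in brain (35.8%, beside 25.3%). In brain 37 of the 39 were higher in the Y130A litters, beside 3022 of the 4266 genes without overlap. The median log2 fold change over the members was 0.19, 0.15 and 0.20 in lung, liver and brain, beside 0.00, 0.04 and 0.06 over all genes.

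Markers of some cell types also differed between the wild-type sets without overlap. Neuron markers summed to 3909 to 4284 CPM in brains of the S226A litters and 4628 to 5074 CPM in those of the Y130A litters. In liver, hepatocyte markers summed to 180500 to 185071 against 194068 to 228386 CPM and those of neutrophils and precursors to 3025 to 3602 against 3698 to 4577 CPM. In lung each of the 8 marker lists overlapped. The part of these markers in the member results was not tested. Set of litters, depth and any difference in handling cannot be told apart here.

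The cluster of 13 on chromosome 17 gave 4 of the 13 in liver, 5 of the 20 in lung and 4 of the 5 in brain, all higher in the Y130A litters (30.8%, 38.5% and 30.8% of the cluster, beside 13.1%, 20.1% and 5.98% of all genes called in either direction). Its median log2 fold change was 0.48, 0.46 and 0.48, where the members outside clusters had 0.08, 0.13 and 0.14. In brain, all 13 were above 0. Zfp943 was called in all 3 tissues, which came largely from the same embryos. It read 12.6, 19, 14.7 and 13.6 CPM in wild-type brains of the S226A litters and 22.9, 24.9, 26.2 and 24.1 CPM in those of the Y130A litters (0.71 ± 0.15, adjusted p = 0.00222, edgeR). In lung it read 14.5, 15.7, 13.5 and 10.4 CPM against 19.6, 26.5 and 21.4 CPM (0.73 ± 0.16, 0.000831). In liver it read 12.8, 9.73, 9.49 and 7.66 CPM against 16.4, 12.5, 13.4 and 16 CPM (0.56 ± 0.15, 0.0141), with overlap, and the liver call was lost without S226A-litter replicate 4 or Y130A-litter replicate 1 or 4 (up to 0.064). The mutants followed their own set, with 12.4 to 16 CPM in S226A brains and 22 to 27.4 CPM in Y130A brains.

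Zfp946 was called higher in lung (0.84 ± 0.15, adjusted p = 0.000112, edgeR) and in brain (0.51 ± 0.14, 0.0181), Zfp944 in brain (0.55 ± 0.14, 0.0143), Zfp945 in brain (0.46 ± 0.13, 0.0243), and Zfp942 (0.77 ± 0.18, 0.00359) and Zfp948 (0.53 ± 0.13, 0.00833) in liver. Wild-type brains of the S226A litters held 19.3 to 25.6 CPM of Zfp946 and those of the Y130A litters 29.0 to 33.7 CPM, without overlap. In brain, the calls of Zfp944, Zfp945 and Zfp946 were lost without S226A-litter replicate 3 or Y130A-litter replicate 3, those of Zfp945 and Zfp946 also without S226A-litter replicate 1 or Y130A-litter replicate 2, and that of Zfp945 without S226A-litter replicate 4 (adjusted p up to 0.101). The windows before the start sites of Zfp943 and Zfp946 are shown because these 2 genes were called between the sets in both lung and brain. They are written 5′ to 3′ on the plus strand, with CG dinucleotides in capitals, from RefSeq on GRCm38.p6.
Zfp943, chr17:21962309-21962558: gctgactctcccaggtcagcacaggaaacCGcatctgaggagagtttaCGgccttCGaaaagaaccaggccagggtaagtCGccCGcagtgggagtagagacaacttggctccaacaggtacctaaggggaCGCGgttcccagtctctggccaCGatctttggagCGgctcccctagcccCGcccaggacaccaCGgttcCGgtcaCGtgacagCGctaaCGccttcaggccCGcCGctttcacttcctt
Zfp946, chr17:22423952-22424201: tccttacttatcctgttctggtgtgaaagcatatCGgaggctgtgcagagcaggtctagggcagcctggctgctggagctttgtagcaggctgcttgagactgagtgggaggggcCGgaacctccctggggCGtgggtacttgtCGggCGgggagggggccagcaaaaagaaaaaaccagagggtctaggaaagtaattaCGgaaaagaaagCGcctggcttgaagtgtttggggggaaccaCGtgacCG

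Zfp943 had 17 CG dinucleotides in these 250 bases and Zfp946 had 9. Opposite in direction to the cluster was Zfp871, on the same chromosome 1.12 Mb from Daxx. It was lower in the Y130A litters in all 3 tissues. In lung it read 97.6, 95.7, 104 and 89.3 CPM in the S226A litters and 66.4, 59.9 and 59.7 CPM in the Y130A litters, far apart (-0.64 ± 0.10, adjusted p = 2.16e-05, edgeR). In brain it read 73.0 to 84.5 CPM against 53.5 to 67.8 CPM (-0.36 ± 0.09, 0.0142), and in liver 87.4 to 100 CPM against 66.3 to 86.2 CPM (-0.31 ± 0.09, 0.0213). The brain call was lost without S226A-litter replicate 4 or Y130A-litter replicate 3 (up to 0.101).

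In lung, Zfp703 was the member with the largest difference between the sets among those called, at -2.06 ± 0.36 (adjusted p = 7.57e-05, edgeR). The lungs at 20.9 and 32.2 CPM were the highest, and the other wild-type lungs of the S226A litters, at 6.8 and 7.91 CPM, still lay above the Y130A litters, at 3.39, 4.64 and 4.09 CPM. Zfp704 was lower too, with 193 to 249 CPM against 156 to 170 CPM (-0.44 ± 0.09, 0.000387), and Zfp949 higher (0.63 ± 0.15, 0.00168). In liver, Zfp971 (0.59 ± 0.14, 0.0043) and Zfp984 (0.92 ± 0.25, 0.0143) were higher, the second lost without S226A-litter replicate 1 or 3 (up to 0.0712). Zfp872 had 6, 4, 0 and 0 reads in the S226A litters and 0 in each liver of the Y130A litters, so it was at least 1.67-fold lower there, and the call was lost without S226A-litter replicate 1 or Y130A-litter replicate 1 or 4 (up to 0.0974).

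The counts between the sets moved with single libraries. In liver they fell to 4 and 7 without Y130A-litter replicate 4 or 1. In lung they fell to 12 without S226A-litter replicate 4 and to 11, 13 and 13 without Y130A-litter replicates 1, 2 and 3. In brain they fell to 3, 2 and 3 without S226A-litter replicates 1, 3 and 4 and to 3 and 1 without Y130A-litter replicates 2 and 3. With only the compared libraries fitted, the counts were 2 in liver, 2 in lung and 29 in brain. At most 2 of the calls named between the sets in liver, and at most 2 of those in lung, therefore held there. The shares of all genes called in these fits are not given, so the counts are not read as a result about the members.

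**Figure D5:**
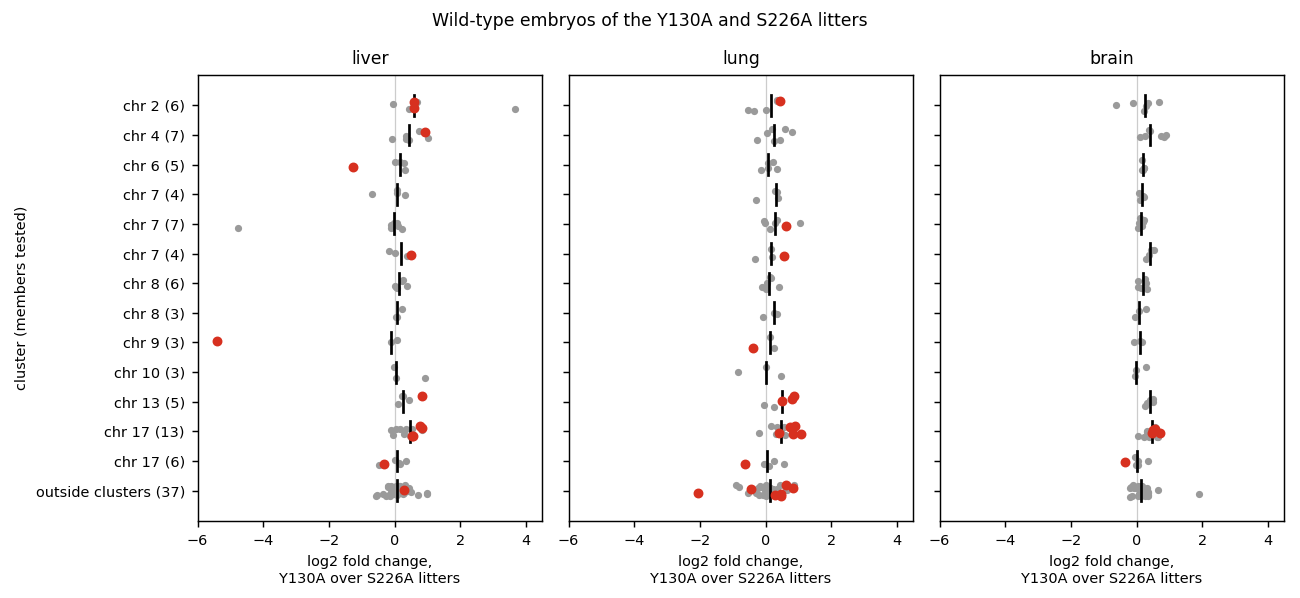
Log2 fold change of wild-type embryos of the Y130A litters over those of the S226A litters for each tested member, by cluster (chromosome, with the number of members tested) and tissue. Red points were called at an adjusted p below 0.05, grey were not, and the black bar is the median. The chromosome 17 cluster of 13 is shifted to the right in each tissue, with medians of 0.48, 0.46 and 0.48.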

How the data were processed

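Total RNA of flash-frozen E18.5 organs had been sequenced by the authors, who trimmed reads with Trim Galore 0.6.5 (FastQC 0.11.5), aligned them to GRCm38 with STAR 2.6.0b and deposited raw counts per gene (GENCODE M19) as 1 table for 47 libraries. Whether counting used strand is not given in the sources used here. The authors had left out 1 wild-type lung as an outlier, and named another as a possible outlier in their repeat analysis.

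From these deposited counts, edgeR 4.0.16 (R 4.3.3) was run on all 47 libraries with TMM factors, its default filter (minimum count 10, total 15) and 1 coefficient per group. The quasi-likelihood test was adjusted by Benjamini-Hochberg over 16892 genes, and calls had an adjusted p below 0.05, with a log2 fold change beyond 1 between tissues. The same script was tested on simulated data. DESeq2 1.42.0, other filters, scaling, litter and embryo as blocks, and leaving out each library were alternatives. Litter numbers come from the labels, and littermate pairs share a litter: 18 of 23 pairs had deviations from their group means correlated above 0.1 (median 0.21, from -0.05 to 0.47). No library copied another (lowest chi-square per degree of freedom 3.9).

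Total counts ran from 15722147 to 54885020. KRAB boxes and fingers were found by pattern in proteins translated from GENCODE M21, in place of RefSeq proteins, which were not used here. Gene coordinates are also from GENCODE M21 (GRCm38). Genes named were, for each mutant comparison, the members called, the 6 leaders and 6 most even members of tissues, the 6 lowest adjusted p-values between sets and between mutants, and 12 members with a known role. Members and lists were chosen with earlier results of these data known. Each embryo is 1 replicate within a tissue. Liver, lung and brain of a set came largely from the same embryos, so results in different tissues do not come from separate animals.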

Additional observations from a re-analysis of the deposited data

Results flagged for a closer look

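In liver, Zfp853 stood at 0.797 CPM (13 reads) in wild-type replicate 4 of the S226A litters, while the other 7 wild-type livers lay between 0 and 0.345 CPM. In brain, Zfp944 stood at 13.3 CPM in wild-type replicate 2 of the S226A litters, and the other 3 of that group lay between 10.8 and 11.1 CPM. These were the 2 samples far from the rest of their group among 93 groups of values examined, where chance gives about 1 in 20.

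The S226A and the Y130A effect in liver differed by a test of the difference for 3 members. It was -0.66 ± 0.18 for Zfp760 (log2, SE; adjusted p = 0.0223, edgeR), -0.65 ± 0.19 for Zfp945 (0.0321) and -3.29 ± 1.00 for Zfp972 (0.0404). All 3 missed the threshold without the 2 livers holding squamous transcripts.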

How the results depend on the processing

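Of the counts of members called, those between brain and liver stayed within 1.5 times under the alternatives run, and from 61 to 64 when 1 library was left out. Leaving out 1 library gave 33 to 35 between brain and lung, 27 to 31 between lung and liver, 2 to 9 in S226A liver, 0 to 7 in S226A lung, 0 to 1 in S226A brain, 0 to 1 in Y130A liver, 0 to 0 in Y130A lung and brain, 0 to 4 for the difference between mutants in liver and 0 to 0 in lung and brain, and 4 to 15, 11 to 23 and 1 to 7 between the wild-type sets in liver, lung and brain. With no limit on the fold, 81 members were called between brain and lung and 81 between lung and liver. Under stringent criteria (adjusted p below 0.01 and log2 fold change beyond 1), 0 members were called in S226A liver, lung and brain, in Y130A liver, and for the difference between mutants in liver, and 0, 2 and 0 between the sets in liver, lung and brain. DESeq2 called 9 in S226A liver, 5 in S226A lung, 3 in Y130A liver, 1 in Y130A brain and 6 for the difference in liver. With only the compared libraries fitted, the counts were 0 in S226A liver, S226A lung, Y130A liver and the difference in liver, 1 in Y130A brain, and 2, 2 and 29 between the sets in liver, lung and brain. The shares of all genes called under these alternatives are not given, so the counts do not set the members against other genes. A pair of alternatives was chosen after seeing the data. Thinning the Y130A litters gave 0 in Y130A liver, and leaving out the 2 livers with squamous transcripts gave 1 for the difference in liver. With the litter as replicate block the counts were 4 in S226A liver (2 of them shared with the fit without the block), 3 in S226A lung, 1 in S226A brain, 1 in Y130A liver (0 shared) and 3 for the difference in liver, and with the embryo as block 62, 33 and 30 between tissues. Between the wild-type sets no block could be fitted, because litters are nested in sets. The litter block changed no other member's call in a mutant or in the difference between mutants than those given for Zfp944, Zfp810, Zfp945, Zfp992 and Zfp872. Of the values of named members under alternatives, 933 kept direction and side of the threshold, 155 kept direction and lost the threshold, and 0 reversed. The cause of these changes was not tested. The calls of Zfp972 and Zfp872 rest on few reads. The 17 untested members had 22 reads at most in any library, and many share most of their 50-base words with other genes, so how far depth limits them was not tested.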
